A study of Mus musculus with 33 samples.

Results

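Elf5, the prolactin receptor and the STAT5 signalling genes were examined as 10 named rows of the mouse mammary count table: Elf5, its neighbour BC016548, Ehf, Elf3, Prlr, Stat5a, Stat5b, Cish, Socs2 and Kit. They are 10 of 55487 genes in the table and were chosen by gene symbol. All 10 were among the 36527 genes tested, which had at least 10 reads summed over the libraries. RNA sequencing was performed on 33 libraries, 1 per mouse, from mammary tumors and tumor-free mammary glands of mice with intact Pthrp (Pthrpwt/wt, PTHrP WT) or floxed Pthrp (Pthrpflox/flox, PTHrP KO). The study asked how loss of PTHrP (parathyroid hormone-related protein, gene Pthlh) alters tumor onset and progression. PTHrP WT tumors were taken at weeks 6, 8 and 10 (3 mice each) and week 12 (1 mouse), and PTHrP KO tumors at weeks 8, 10 and 12 (3 mice each). PTHrP WT glands were taken at weeks 6, 8, 10 and 12 and PTHrP KO glands at weeks 8, 10 and 12 (2 mice each). All mice carried MMTV-Cre and the mT/mG reporter on an FVB background, and tumor mice also carried the MMTV-PyMT oncogene, which tumor-free mice lacked. The MMTV promoter drives both transgenes mainly in mammary epithelium, and the floxed genotype is a knockout only where Cre has acted. According to the study's methods, digested tissue was cultured for a short period in serum-containing medium before GFP+ cells were sorted, so the levels are those of sorted cells after culture. The study's stages were hyperplasia (WT week 6, KO week 8), adenoma (WT week 8, KO week 10) and carcinoma (WT week 10, KO week 12).

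In the mammary gland, prolactin binds the prolactin receptor (Prlr) on luminal cells, the associated kinase Jak2 phosphorylates Stat5a and Stat5b, and the activated STAT5 proteins enter the nucleus and induce alveolar and milk genes as well as the inhibitors Cish and Socs2, which dampen the signal. Elf5, Ehf and Elf3 are ETS transcription factors of epithelial cells. Elf5 directs luminal progenitors towards the alveolar fate in pregnancy, and Kit is a receptor tyrosine kinase of luminal progenitors and, outside the epithelium, of mast cells and melanocytes.

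Elf5 lies on mouse chromosome 2 (GRCm38, chr2:103411688-103450989, plus strand), and the long noncoding RNA gene BC016548 (chr2:103377643-103389044, minus strand) ends 22644 bases before the start of Elf5. Ehf lies on the same side (chr2:103263433-103303278, minus strand), with 108410 bases between it and Elf5. Stat5b (chr11:100780731-100850724, minus strand) and Stat5a (chr11:100859351-100885169, plus strand) are neighbours with 8627 bases between them. The other members lie apart, Elf3 on chromosome 1, Kit on 5, Cish on 9, Socs2 on 10 and Prlr on 15.

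RefSeq promoters on GRCm38.p6 were matched for 7 of the 10 members. The start regions of Elf5, the ETS member with the largest fold change between tumors and glands, and of Cish, a known direct STAT5 target, are printed, each with 250 bases before the RefSeq start and the first 30 bases after it. Capitals mark the ETS core GGAA on either strand in the Elf5 promoters (TTCC is the same core on the other strand) and the STAT5-type palindrome TTCNNNGAA in the Cish promoter. The coordinates are chr2:103411848-103412127, chr2:103423818-103424097 and chr9:107296409-107296688, all on the plus strand.
Elf5 promoter 1: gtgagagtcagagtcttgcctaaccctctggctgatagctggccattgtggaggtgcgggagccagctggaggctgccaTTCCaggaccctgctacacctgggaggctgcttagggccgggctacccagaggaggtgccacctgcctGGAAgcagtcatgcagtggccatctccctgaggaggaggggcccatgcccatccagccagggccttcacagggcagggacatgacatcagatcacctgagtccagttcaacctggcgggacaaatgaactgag
Elf5 promoter 2: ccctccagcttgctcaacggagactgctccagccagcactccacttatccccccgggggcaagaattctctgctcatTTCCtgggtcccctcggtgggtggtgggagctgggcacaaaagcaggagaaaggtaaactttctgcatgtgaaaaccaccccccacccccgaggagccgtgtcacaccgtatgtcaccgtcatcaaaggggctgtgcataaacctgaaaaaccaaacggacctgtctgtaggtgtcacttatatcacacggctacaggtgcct
Cish promoter: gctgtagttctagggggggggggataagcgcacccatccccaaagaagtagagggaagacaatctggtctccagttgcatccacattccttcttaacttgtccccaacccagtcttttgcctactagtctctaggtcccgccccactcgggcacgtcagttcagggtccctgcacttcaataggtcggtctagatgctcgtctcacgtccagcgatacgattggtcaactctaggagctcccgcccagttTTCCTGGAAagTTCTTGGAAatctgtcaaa
The palindrome TTCNNNGAA was found in 2726 of 32851 RefSeq promoters of 300 bases (8.30%) and GGAA in 31532 (96.0%). The Cish promoter held 2 matches to the palindrome, the first beginning at the RefSeq start, and the second promoter of Prlr held 1. No match was found in the 2 Elf5, 2 Stat5a, 2 Stat5b and 2 Kit promoters, the Elf3 promoter or the other 2 Prlr promoters. Each Cish match also contains the letters GGAA, so the 2 motifs overlap there. The Elf5 promoters held 2 and 1 GGAA cores. These are letter matches in a fixed window, and binding was not measured.

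Read totals ran from 28419983 to 130981596 per library (median 46351179), and each member was covered by at least 94 reads in every library except BC016548, which had 6 to 621. Values are CPM, the read count relative to the library size, with library sizes scaled by the trimmed mean of M-values (TMM). Ribosomal RNA took at most 0.447% of reads in PTHrP WT libraries, 0.0224% to 18.8% in PTHrP KO glands and up to 12.0% in PTHrP KO tumors. The targeted gene Pthlh was at 1.46 to 6.67 CPM in WT tumors, 1.35 to 2.29 in KO tumors, 2.93 to 7.73 in WT glands and 2.79 to 8.52 in KO glands, so the genotypes overlapped. A whole-gene count includes exons outside the loxP-flanked part, so it does not check the deletion. The labelled cell type, mammary epithelium, had its defining markers: the summed CPM of 10 luminal keratin and epithelial markers was 9352 to 15405 in glands and 6316 to 14678 in tumors. The summed CPM of 10 basal or myoepithelial markers was 5311 to 20766 in glands and 1006 to 5420 in tumors, and all 10 were lower in tumors. In bulk libraries, fewer cells of a type and less RNA per cell cannot be told apart.

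Elf5, BC016548, Ehf and Kit were higher in tumors than in glands, whereas Prlr, Stat5a, Stat5b, Cish, Socs2 and Elf3 did not pass the test. A gene was called when its fold change exceeded 1.5 at an adjusted p under 0.1 in edgeR's quasi-likelihood test. In the comparison averaged over the 6 pairs of age- and genotype-matched tumor and gland groups, 4 of the 10 members were called, all higher in tumors, against 14.9% of all genes tested in either direction and 6.69% higher in tumors. The median log2 fold change of the 10 members was 0.03, and that of all genes tested was 0.08. The number of members called, all higher in tumors, was 3 in WT week 6, where 5.86% of genes were called and 2.32% were higher. It was 4 in WT week 8 (9.19% and 3.35%) and 3 in WT week 10 (6.13% and 2.46%). In PTHrP KO mice it was 2 in week 8 (2.49% and 1.11%), 3 in week 10 (5.66% and 2.57%) and 4 in week 12 (6.11% and 3.19%). The plot of levels by library shows which members separate the tissues and which do not.

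**Figure D1:**
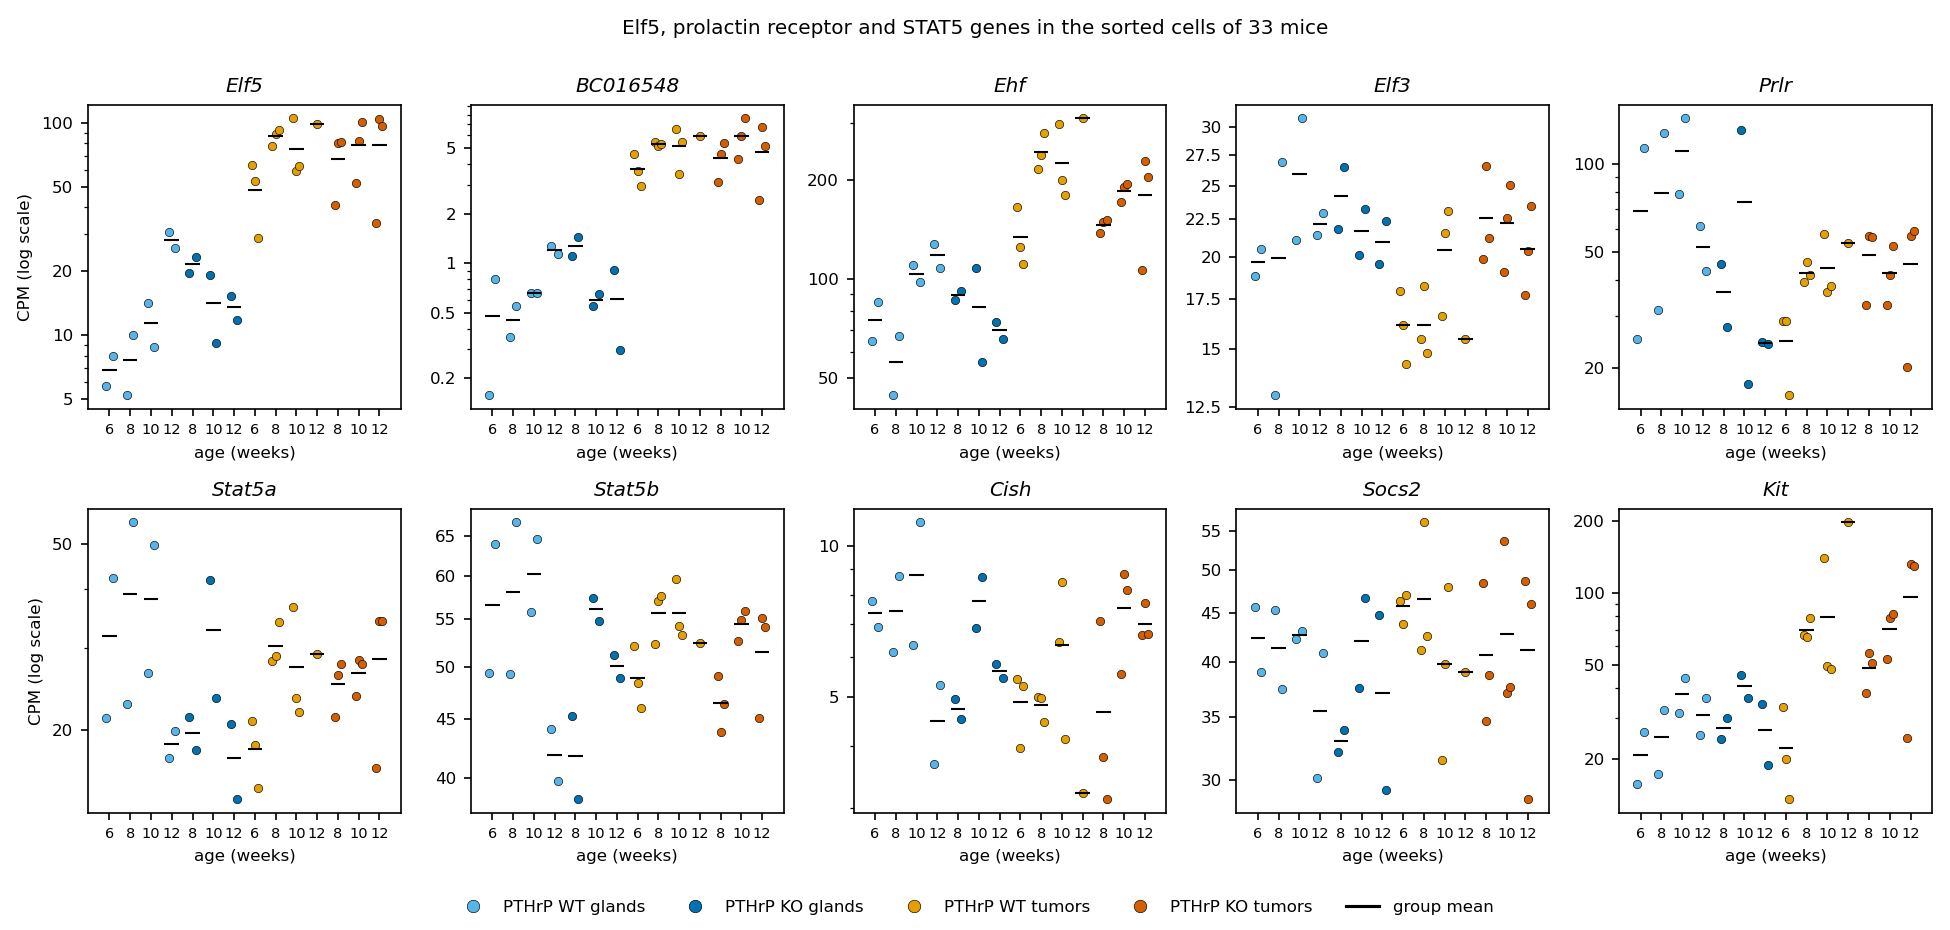
CPM of each of the 10 members in every library (log axis), by tissue, genotype and week; each point is 1 library from 1 mouse. The points of Elf5, BC016548 and Ehf lie higher in most tumors than in any gland (18, 19 and 16 of 19 tumors, and 17, 18 and 15 of 18 without the single WT tumor of week 12), while Stat5b and Cish points overlap in both tissues.

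Elf5 was at 5.79 and 8.00 CPM in the WT glands of week 6, 5.25 and 10.0 at week 8, 14.2 and 8.78 at week 10, and 30.6 and 25.6 at week 12. In KO glands it was at 19.6 and 23.5 CPM at week 8, 19.3 and 9.20 at week 10, and 15.3 and 11.8 at week 12. The highest glands were thus both WT glands of week 12. WT tumors had 63.3, 53.0 and 28.6 CPM at week 6, 77.5, 88.9 and 92.6 at week 8, 105, 59.2 and 62.6 at week 10, and 98.6 in the single tumor of week 12. KO tumors had 40.9, 80.4 and 80.8 CPM at week 8, 52.1, 82.1 and 101 at week 10, and 33.6, 105 and 96.8 at week 12. Of 19 tumors, 18 lay above all 14 glands, and the exception was the third WT tumor of week 6, which lay below only the 1 highest gland. In every matched group the lowest tumor was above the highest gland.

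Elf5 rose in tumors 7.0-fold at WT week 6 (log2 fold change 2.81 ± 0.47 SE, adjusted p = 0.00102, edgeR), 11.3-fold at WT week 8 (3.5 ± 0.49, adjusted p = 4.73e-05) and 6.55-fold at WT week 10 (2.71 ± 0.47, adjusted p = 0.0006). In KO mice it rose 3.13-fold at week 8 (1.65 ± 0.44, adjusted p = 0.0559), 5.51-fold at week 10 (2.46 ± 0.46, adjusted p = 0.00212) and 5.75-fold at week 12 (2.52 ± 0.46, adjusted p = 0.0019). The smallest of the 6 differences, at KO week 8, stood beside the highest KO glands. It did not pass the test without either KO gland (log2 1.52 without replicate 1, 1.80 without replicate 2) or without tumor replicate 2 (1.54) or 3 (1.49). The call at KO week 10 was lost without KO gland replicate 2 (2.02, adjusted p = 0.102). The averaged difference was 6.10-fold (2.61 ± 0.19, adjusted p = 7.83e-11). Relative to the summed luminal keratin markers, Elf5 stood at a log2 ratio of -11.06 to -8.53 in glands and -8.92 to -5.91 in tumors, and 17 of 19 tumors lay above all glands. Between the tissues the basal markers fell while Elf5 rose. Within tissues, r of Elf5 with the summed basal markers was -0.45 over tumors (adjusted p = 0.157, permutation test) and -0.34 over glands (adjusted p = 0.348). The part of the basal markers in the result was not tested.

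The order of Elf5 group means ran from WT glands of week 6 (6.90 ± 1.56 CPM, SD, n = 2) and week 8 (7.63 ± 3.36) through WT glands of week 10 (11.5 ± 3.82), KO glands of week 12 (13.6 ± 2.49), week 10 (14.3 ± 7.16) and week 8 (21.5 ± 2.74) to WT glands of week 12 (28.1 ± 3.52). Tumor groups followed, from WT week 6 (48.3 ± 17.8, n = 3), KO week 8 (67.4 ± 22.9), WT week 10 (75.5 ± 25.4), KO week 10 (78.4 ± 24.6) and KO week 12 (78.4 ± 39.0) to WT week 8 (86.3 ± 7.86). The single WT tumor of week 12 (98.6 CPM) has no spread and was left out of this order. Neighbouring tumor groups overlapped in every case, and the groups next to each other at the lower end of the gland order overlapped as well. The ranges of adjacent groups were separate at 2 places, between KO glands of weeks 10 and 8 and between KO glands of week 8 and WT glands of week 12, while WT glands of week 12 overlapped WT tumors of week 6.

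BC016548, a long noncoding RNA gene of which no function is assumed here, followed Elf5 at a lower level. It was at 0.158 and 0.802 CPM in WT glands of week 6, 0.354 and 0.546 at week 8, 0.662 and 0.660 at week 10 and 1.27 and 1.14 at week 12. KO glands had 1.10 and 1.44 CPM at week 8, 0.545 and 0.651 at week 10 and 0.914 and 0.295 at week 12. No gland exceeded 1.44 CPM. WT tumors had 4.62, 3.65 and 2.93 CPM at week 6, 5.41, 5.14 and 5.27 at week 8, 6.49, 3.5 and 5.45 at week 10 and 5.95 at week 12. KO tumors had 3.10, 4.62 and 5.35 CPM at week 8, 4.28, 5.92 and 7.58 at week 10 and 2.44, 6.69 and 5.12 at week 12. All 19 tumors lay above all 14 glands, so the tissues did not overlap. BC016548 was called in each of the 6 matched comparisons, with folds from 3.45 at KO week 8 (log2 1.79 ± 0.48, adjusted p = 0.0572, edgeR) to 11.6 at WT week 8 (3.54 ± 0.53, adjusted p = 9.35e-05). Its averaged fold was 7.47 (2.90 ± 0.21, adjusted p = 6.99e-11). The KO week 8 call was lost without gland replicate 1 (log2 1.59) or 2 (2.01) or tumor replicate 2 (1.78) or 3 (1.61). The KO week 12 call was lost with only the groups compared in the fit (2.88, adjusted p = 0.195, edgeR), where 0 of all genes were called. The CPM of BC016548 was 2.5% to 10.0% of that of Elf5 in glands (median 5.53%) and 5.29% to 10.2% in tumors (median 6.89%).

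Around Elf5, 8 annotated genes lay within 200 kb on either side, and 6 were tested. This window was chosen after the values had been seen. Cat, which encodes catalase and lies 2860 bases beyond the end of Elf5, was at 61.6 to 89.8 CPM in glands and 82.2 to 190 in tumors and was called (log2 0.63 ± 0.08, adjusted p = 2.63e-07, edgeR). Abtb2 was at 58.5 to 104 CPM in glands and 31.6 to 89.7 in tumors (-0.42 ± 0.11, adjusted p = 0.00578) and did not reach the fold threshold. The noncoding genes A930006I01Rik and Gm37220, between Ehf and BC016548, stayed at or below 0.106 CPM in every library, which is too low to compare, although the first was called. Among Elf5 and the 4 neighbours expressed above that level, BC016548 and Elf5 had the largest folds, Ehf and Cat had smaller ones, and Abtb2 pointed the other way.

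**Figure D2:**
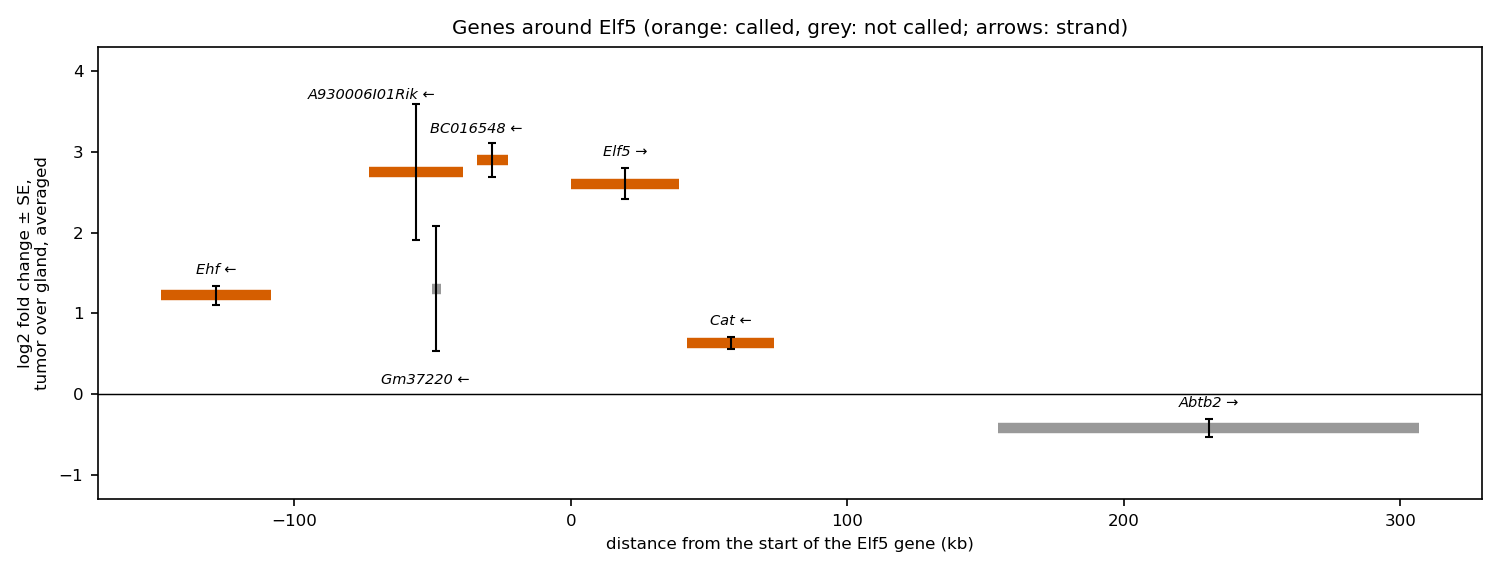
Log2 fold change of tumors against glands (averaged comparison) for Elf5 and the 6 tested genes near it, drawn as bars from gene start to end with black SE bars, by distance from the Elf5 start in kb. Orange bars are called genes, grey bars are not, and arrows give the strand. BC016548 and Elf5 stand at 2.90 and 2.61, Ehf at 1.22, Cat at 0.63 and Abtb2 at -0.42.

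Ehf, an ETS factor of epithelial cells closely related to Elf5, was the most abundant member per kb of merged exon in both tissues, with a median level of 15.4 CPM per kb in glands and 34.2 in tumors. Elf5 had rank 8 of the 10 members in glands (median level 2.21 CPM per kb) and rank 2 in tumors (13.7). Ehf was at 64.9 and 85.1 CPM in WT glands of week 6, 44.5 and 67.4 at week 8, 110 and 97.9 at week 10 and 128 and 108 at week 12. KO glands had 86.5 and 92.5 CPM at week 8, 109 and 55.9 at week 10 and 74.1 and 65.7 at week 12. WT glands of weeks 10 and 12 thus held 4 of the 5 highest gland values. WT tumors had 166, 125 and 111 CPM at week 6, 217, 239 and 278 at week 8, 297, 200 and 180 at week 10 and 309 at week 12. KO tumors had 139, 149 and 152 CPM at week 8, 172, 191 and 195 at week 10 and 107, 229 and 205 at week 12. Of 19 tumors, 16 lay above all glands, and the remaining 3 were 2 WT tumors of week 6 and the first KO tumor of week 12. The averaged fold was 2.33 (log2 1.22 ± 0.11, adjusted p = 4.65e-09, edgeR). Ehf was called in 5 of the 6 matched comparisons, from 1.79-fold at WT week 6 (0.84 ± 0.27, adjusted p = 0.0869) to 4.37-fold at WT week 8 (2.13 ± 0.29, adjusted p = 4.17e-05). The exception was KO week 8 (1.64-fold, 0.71 ± 0.27, adjusted p = 0.26), where it was called without a filter on low counts (adjusted p = 0.0488) and with only the groups compared in the fit (adjusted p = 0.0246). The WT week 6 call was lost without gland replicate 1 (0.66) or 2 (1.05) or tumor replicate 1 (0.66) or 2 (0.89), with a replicate block (0.84, adjusted p = 0.118, edgeR) and with the rRNA share as covariate (0.84, adjusted p = 0.104). The WT week 10 call was lost without gland replicate 2 (1.03) and the KO week 10 call without gland replicate 2 (0.78). With only the groups compared in the fit, the KO week 12 call was lost (1.34, adjusted p = 0.209, edgeR), where 0 of all genes were called.

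Elf3, the third epithelial ETS factor, was at 12.98 to 30.8 CPM in glands and 14.3 to 26.6 in tumors, so the tissues overlapped throughout. Its averaged log2 fold change was -0.17 (95% interval -0.36 to 0.02, adjusted p = 0.227, edgeR). At WT week 8 its difference was -0.30, and it was called lower in tumors without gland replicate 1 (-0.73, adjusted p = 0.064) and turned to 0.32 without gland replicate 2. Elf3 shares 162 exon bases with the antisense gene Gm26642, and whether the authors' counting used strand is not given in the sources used here. Of 23 further ETS factor genes, 1 was called higher in tumors and 3 lower, beside 14.9% of all genes called in either direction and 6.69% higher. Their median log2 fold change was 0.05, and that of all genes tested was 0.08. Etv1, an ETS factor of the PEA3 group, rose 3.75-fold (1.91 ± 0.28, adjusted p = 8.32e-06). Fli1 and Spi1, ETS factors of blood and endothelial cells, fell (log2 -2.13 and -1.61), as did Spdef, an epithelial ETS factor (-1.72).

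**Figure D3:**
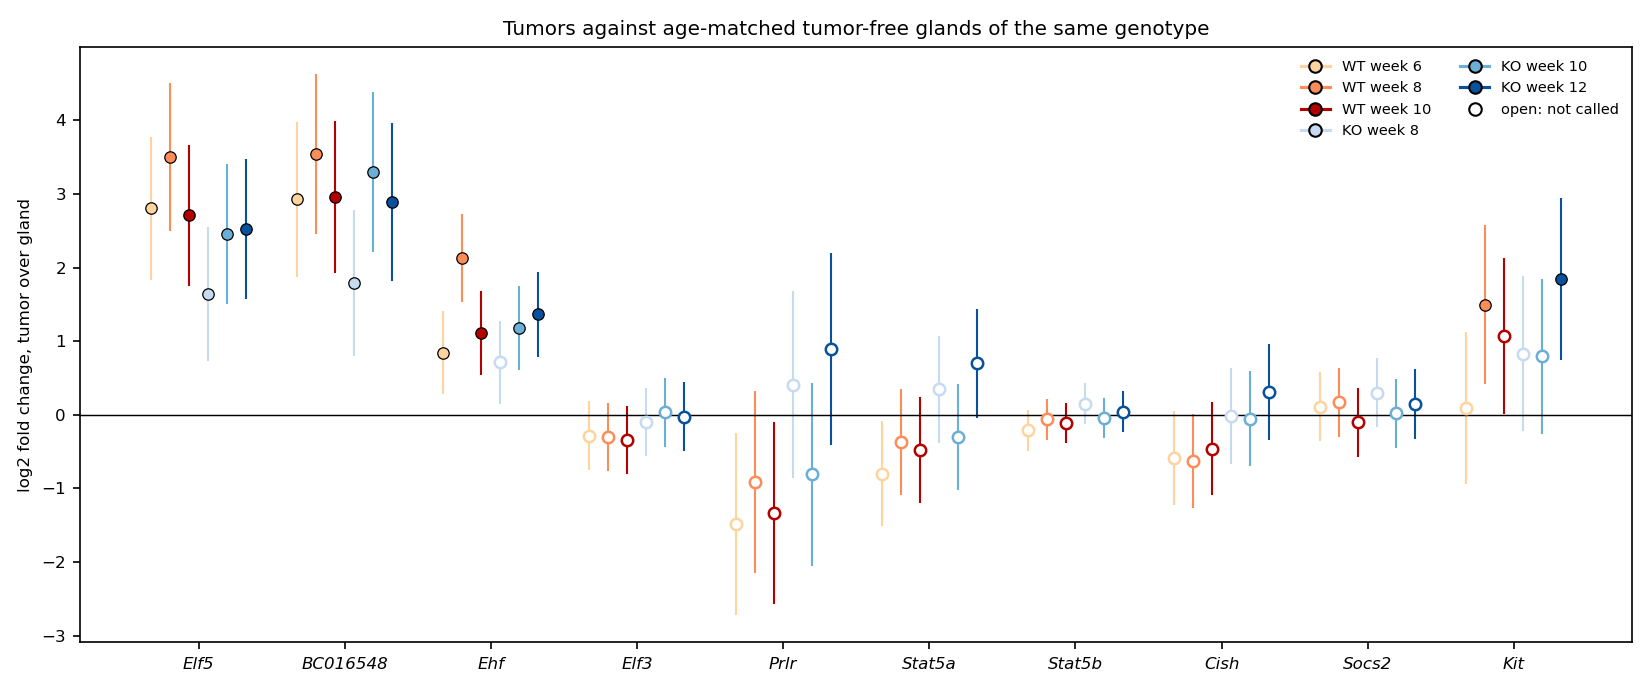
Log2 fold change of tumors against glands for each member in the 6 matched comparisons (points with 95% intervals, open where not called). Elf5 and BC016548 lie above 1.6 in all 6, Stat5b and Socs2 lie between -0.21 and 0.30, and Prlr runs from -1.48 at WT week 6 to 0.89 at KO week 12.

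Prlr, the receptor through which prolactin signals, varied more among glands than among tumors. WT glands had 25.0 and 113 CPM at week 6, 31.5 and 128 at week 8, 79.1 and 143 at week 10 and 61.3 and 42.9 at week 12. KO glands had 45.3 and 27.7 CPM at week 8, 130 and 17.7 at week 10 and 24.6 and 24.2 at week 12. Glands of the same age and genotype thus differed by several fold at WT weeks 6 and 8 and at KO week 10. The second WT gland was the higher at weeks 6, 8 and 10 and the lower at week 12. Whether same-numbered mice shared a litter or batch is not given in the labels. WT tumors had 29.1, 28.9 and 16.2 CPM at week 6, 39.4, 46.3 and 41.5 at week 8, 57.7, 36.3 and 38.3 at week 10 and 53.4 at week 12. KO tumors had 32.8, 56.8 and 56.3 CPM at week 8, 32.9, 41.7 and 52.3 at week 10 and 20.1, 56.8 and 58.9 at week 12. No tumor lay above all glands, and 1 lay below all of them. The coefficient of variation was 71.9% over the 14 glands and 31.5% over the 19 tumors.

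By edgeR with all groups in 1 fit, Prlr was not called in any of the 6 matched comparisons or in their average (log2 -0.54 ± 0.25, 95% interval -1.05 to -0.03, adjusted p = 0.135, edgeR). Its log2 differences were -1.48, -0.91 and -1.33 at WT weeks 6, 8 and 10 and 0.41, -0.81 and 0.89 at KO weeks 8, 10 and 12. The averaged difference passed the test without WT gland replicate 1 of week 6 (-0.66), WT gland replicate 1 of week 8 (-0.65) or KO gland replicate 2 of week 10 (-0.67), and the difference at WT week 6 did so without gland replicate 1 (-2.20), whereas without gland replicate 2 it was -0.016. Without KO gland replicate 1 of week 10 the averaged difference was -0.19. Prlr was also called lower in tumors at WT week 6 by DESeq2 (-1.5, adjusted p = 0.0912), at WT week 10 with only the groups compared in the fit (-1.32, adjusted p = 0.0814, edgeR), and without a filter on low counts at WT weeks 6 (-1.48, adjusted p = 0.0135) and 10 (-1.32, adjusted p = 0.0365). Single glands set the sign at 2 ages, as the difference turned to 1.26 at KO week 10 without gland replicate 1 and to 0.43 at WT week 8 without gland replicate 2. The log2 ratio of Prlr to Elf5 was 1.95 ± 1.29 (SD, n = 14) in glands and -0.81 ± 0.21 (SD, n = 19) in tumors, and every gland lay above every tumor. Elf5 was therefore below Prlr in CPM in all 14 glands and above it in all 19 tumors. CPM does not correct for length, and the merged exons were 5877 bases for Elf5 and 15339 for Prlr. Per kb of merged exon, the ranges overlapped in glands (0.893 to 5.21 CPM for Elf5, 1.15 to 9.34 for Prlr). In tumors the ranges per kb were separate (4.87 to 17.8 and 1.05 to 3.84). Prlr shares 203 exon bases with the same-strand gene Gm21973, where the counting of shared reads is uncertain.

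Among the glands, Prlr levels ran in parallel with genes of hormone-sensing luminal cells, the estrogen and progesterone receptor-bearing cells of the ducts. The 5 glands with the most Prlr, 143 (WT week 10), 130 (KO week 10), 128 (WT week 8), 113 (WT week 6) and 79.1 CPM (WT week 10), had summed levels of 9 hormone-sensing genes of 748, 566, 778, 590 and 522 CPM. The other 9 glands had sums of 278 to 400 CPM. Over the 14 glands, Pearson's r of log2 levels was 0.91 (adjusted p = 0.00024, permutation test, two-sided) and Spearman's rho 0.83 (adjusted p = 0.0106), with values adjusted over the 24 relations computed between members and marker lists. The unadjusted p of r, 1e-05, was the smallest that 100000 permutations can give. Without the 2 glands farthest from the median r was 0.87, and within genotypes it was 0.89 (WT) and 0.92 (KO). Over the 19 tumors the same r was 0.31 (adjusted p = 0.329, permutation test) with rho 0.38 (adjusted p = 0.287), and the difference between the tissues was not tested. The summed level of the list was alike in both tissues at the median (359.8 CPM in glands and 360.5 in tumors) and ranged from 278 to 778 CPM in glands and 246 to 464 in tumors. Prom1 alone had a median of 131 CPM in glands and 197 in tumors, so this gene made up much of the tumor sum used for r. Gene by gene, 6 of the 9 genes of the list fell in tumors and 1 rose, with a median log2 fold change of -1.59. Over all genes tested, 14.9% were called in either direction and 6.69% higher in tumors. Pgr, the progesterone receptor, fell by 4.86 on the log2 scale, and Tbx3 and Foxa1, transcription factors of these cells, fell as well (log2 -4.32 and -3.59), while Prom1 rose by 0.60. Over the glands, Stat5a had r = 0.90 with the summed level of the list (adjusted p = 0.00072, permutation test) and rho 0.67 (adjusted p = 0.0507). Kit had r = 0.42 (adjusted p = 0.251, permutation test) and Elf5 r = -0.18 (adjusted p = 0.566). The part of this list in the levels of Prlr and Stat5a was not tested.

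**Figure D4:**
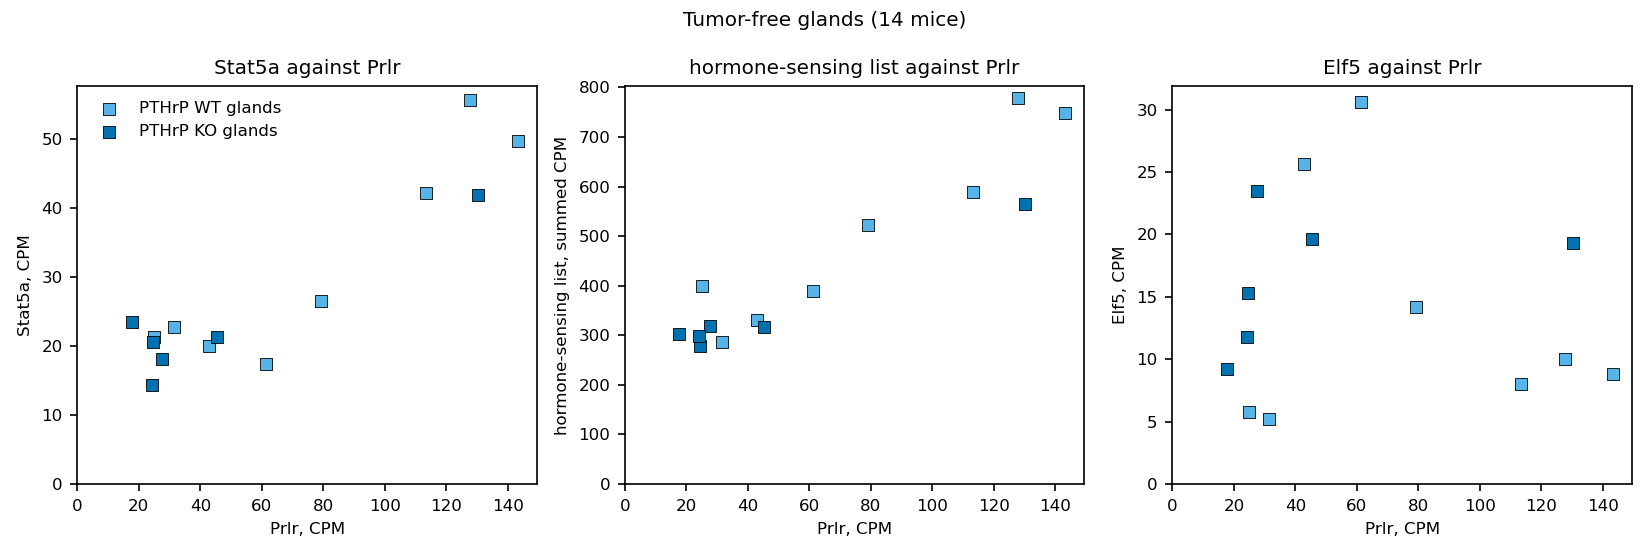
Stat5a CPM, the summed CPM of 9 hormone-sensing luminal genes and Elf5 CPM against Prlr CPM in the 14 tumor-free glands (1 square per mouse, linear axes, light for PTHrP WT and dark for PTHrP KO). The 5 glands with Prlr from 79.1 to 143 CPM have sums from 522 to 778, the other glands have sums from 278 to 400, and Elf5 shows no such slope.

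Stat5a and Stat5b, the transcription factors that act downstream of the receptor, did not pass the test between tumors and glands. Stat5b was at 38.4 to 66.8 CPM in glands and 43.8 to 59.6 in tumors, with the smallest coefficient of variation of the 10 members in tumors (8.59%). Its averaged log2 difference was -0.04 (95% interval -0.15 to 0.07, adjusted p = 0.846, edgeR), an interval that lies well inside the fold threshold in both directions. Stat5a was at 14.3 to 55.5 CPM in glands and 15.1 to 36.6 in tumors. The 4 highest glands, at 55.5 (WT week 8), 49.6 (WT week 10), 42.2 (WT week 6) and 41.9 CPM (KO week 10), were also the 4 with the highest Prlr. Its averaged log2 difference was -0.15 (95% interval -0.45 to 0.14, adjusted p = 0.615), and its direction at WT week 8 depended on 1 gland (-0.37, and 0.41 without gland replicate 2). Stat5a and Stat5b are near-identical paralogs, and the share of reads that fit both is uncertain. Stat5a also shares 72 exon bases with Stat3 on the opposite strand.

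Cish and Socs2, the inhibitors that STAT5 induces, did not pass the test either. Cish, whose promoter with 2 STAT5-type palindromes is printed above, was at 3.68 to 11.1 CPM in glands and 3.13 to 8.78 in tumors, with an averaged log2 difference of -0.24 (95% interval -0.50 to 0.02, adjusted p = 0.22, edgeR). Socs2 was at 29.3 to 46.7 CPM in glands and 28.7 to 56.1 in tumors, and 6 of 19 tumors lay above all glands (0.11, 95% interval -0.08 to 0.30, adjusted p = 0.542). Both ranges overlapped between tissues over most of their extent. Cish shares 261 and 479 exon bases with Gm17040 and Gm17041 on the opposite strand. Of 27 further genes of cytokine receptor and JAK-STAT signalling, 2 were called higher in tumors and 3 lower, beside the same 14.9% and 6.69% of all genes, with a median log2 fold change of 0.01. Erbb4, a receptor tyrosine kinase that acts through STAT5 in the mammary gland, rose 1.59-fold (0.67 ± 0.27, adjusted p = 0.0823), and the kinase Jak3 rose 1.56-fold (0.64 ± 0.12, adjusted p = 0.000126). Cav1 (caveolin), the inhibitor Socs1 and the STAT inhibitor Pias3 fell (log2 -1.55, -0.87 and -0.74).

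Of 19 prolactin and STAT5 target genes, 9 were called higher in tumors (6.69% over all genes) and 2 lower, with a median log2 fold change of 0.76 beside 0.08 over all genes tested. Wap, a whey protein gene, had 0 reads in all 14 glands and 4 to 1310 reads in the tumors. Against a floor of 3 reads per gland library (mean 0.0782 CPM), the tumor mean of 2.95 CPM was at least 37.8-fold higher. The tumors ran from 0.0583 to 18.2 CPM with a median of 0.609, so this bound holds for the mean only. Lalba (alpha-lactalbumin) was at 0 to 0.102 CPM in glands and 0.528 to 43.8 in tumors, and Csn2 (beta-casein) at 0 to 1.60 and 0.0295 to 49.9 (log2 4.67 ± 0.75, adjusted p = 2.31e-05, edgeR). Csn2 therefore overlapped between tissues although its mean was higher in tumors. Wnt4, a prolactin- and progesterone-responsive ligand, fell by 2.53 on the log2 scale, and Igf1, a growth factor, fell by 1.41.

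Kit was the most variable member in tumors, with a range of 13.7 to 198 CPM (coefficient of variation 66.8%). It was at 15.8 and 26.1 CPM in WT glands of week 6, 17.3 and 32.3 at week 8, 31.4 and 44.1 at week 10 and 25.2 and 36.1 at week 12. KO glands had 24.4 and 29.8 CPM at week 8, 45.3 and 36.4 at week 10 and 34.3 and 18.9 at week 12. The glands thus stayed within a range of 15.8 to 45.3 CPM. WT tumors had 33.2, 20.1 and 13.7 CPM at week 6, 66.6, 65.2 and 78.7 at week 8, 140, 49.2 and 47.8 at week 10 and 198 at week 12. KO tumors had 38.0, 55.8 and 50.9 CPM at week 8, 53.0, 78.5 and 81.4 at week 10 and 24.6, 133 and 130 at week 12. Of 19 tumors, 14 lay above all glands, and the 5 others were the WT tumors of week 6, the first KO tumor of week 8 and the first KO tumor of week 12. The averaged fold was 2.03 (log2 1.02 ± 0.21, adjusted p = 0.000533, edgeR). Among matched comparisons it was called at WT week 8 (2.83-fold, 1.5 ± 0.53, adjusted p = 0.0872) and KO week 12 (3.59-fold, 1.84 ± 0.54, adjusted p = 0.0434), and with only the groups compared in the fit also at KO weeks 8 (0.83, adjusted p = 0.0802) and 10 (0.79, adjusted p = 0.0566) but not at KO week 12. The WT week 8 call was lost without gland replicate 1 (1.12) or 2 (2.02) or tumor replicate 1 (1.54), 2 (1.55) or 3 (1.41), with a replicate block (1.53, adjusted p = 0.109, edgeR) and with the rRNA share as covariate (1.51, adjusted p = 0.102). The KO week 12 call was lost without gland replicate 2 (1.52) or tumor replicate 2 (1.54) or 3 (1.56).

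The markers of the 2 other cell types that carry Kit were read beside it. The 10 mast cell markers summed to 12.9 to 68.2 CPM in glands and 3.56 to 32.1 in tumors, and 6 of the 10 fell in tumors (Tpsab1, Tpsb2 and Mcpt4, mast cell proteases, had log2 differences of -5.25, -5.22 and -4.43). Of all genes tested, 14.9% were called in either direction and 6.69% higher in tumors. Most of the mast cell sum was Il1rl1, and the defining proteases Cpa3 and Cma1 were at 0 CPM in the median tumor. Of 7 melanocyte markers, Sox10 and Mitf rose in tumors (1.81-fold and 1.69-fold) and the other 5 did not pass the test. The pigment genes Dct, Tyr, Tyrp1 and Mlana stayed at or below 0.41 CPM in every library. Sox10 also belongs to the luminal progenitor list.

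Of 18 luminal and alveolar progenitor genes, markers of the cells in which Elf5 and Kit are known to be expressed, 12 were called higher in tumors (6.69% over all genes) and 4 lower, with a median log2 fold change of 1.47. Ltf (lactoferrin), Lbp (an acute-phase lipid-binding protein) and Folr1 (a folate receptor) rose 11-fold, 9.35-fold and 7.01-fold. Rspo1, Aldh1a3 and Tspan8 fell (log2 -1.65, -1.56 and -0.75). Members of the list thus went both ways. Over the 19 tumors, Elf5 had r = 0.68 with the summed level of the list (adjusted p = 0.0069, permutation test) and rho = 0.67 (adjusted p = 0.026), and r without the 2 tumors farthest from the median was 0.56 (0.705 within WT and 0.685 within KO tumors). Over the 14 glands the same r was -0.19 (adjusted p = 0.566, permutation test) and rho -0.38 (adjusted p = 0.311). The relation in tumors was not one of Elf5 alone. Stat5a had r = 0.70 with the list over tumors (adjusted p = 0.0069, permutation test), Kit 0.58 (adjusted p = 0.0444) and Prlr 0.53 (adjusted p = 0.0729).

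The genotype comparisons asked whether PTHrP loss alters these genes. At weeks 8 and 10 the study's stages were adenoma and carcinoma in WT tumors but hyperplasia and adenoma in KO tumors. In the comparison of tumors by week, genotype and stage therefore cannot be told apart. No member was called between WT and KO tumors of weeks 8 and 10 by edgeR or DESeq2, where edgeR called 0.512% of all genes in either direction. At an unadjusted p under 0.05 there were 2, Ehf and Elf3, beside 3996 of all genes. Ehf was at 180 to 297 CPM in these 6 WT tumors and 139 to 195 in the 6 KO tumors (log2 0.51, WT minus KO, 95% interval 0.16 to 0.86, adjusted p = 0.231, edgeR), with an overlap of the groups. Elf3 had a log2 difference of -0.30 (-0.60 to -0.01, adjusted p = 0.444). Elf5 differed by 0.15 (95% interval -0.39 to 0.69, adjusted p = 0.897), Prlr by -0.07 (-0.86 to 0.73) and Kit by 0.35 (-0.30 to 1.00). Differences of the size used for calling, 1.5-fold, thus lay within the intervals of Elf5, Prlr and Kit and beyond that of Stat5b (0.15, -0.03 to 0.32).

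No member was called between WT and KO glands of weeks 8, 10 and 12 by edgeR or DESeq2, where edgeR called 0.906% of all genes. At an unadjusted p under 0.05 there was 1, Prlr, beside 4514 of all genes. Prlr ran from 31.5 to 143 CPM in these 6 WT glands and from 17.7 to 130 in the 6 KO glands (log2 0.94, WT minus KO, 95% interval 0.13 to 1.74, adjusted p = 0.322, edgeR). The groups overlapped. Without the first KO gland of week 10 the difference was 1.62 and passed the test (adjusted p = 0.0588), and without the second WT gland of week 8 it was 0.49. Elf5 differed by -0.25 (-0.80 to 0.30), Ehf by 0.14 (-0.21 to 0.49) and Stat5a by 0.43 (-0.02 to 0.89).

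The difference between WT and KO in the tumor-against-gland effect was tested stage by stage, with 0 members called by edgeR or DESeq2 and 0.0% of all genes called by edgeR in each stage. At an unadjusted p under 0.05, there were 2 members (Prlr and Stat5a) at the hyperplasia stage, 1 (Ehf) at the adenoma stage and 2 (Prlr and Stat5a) at the carcinoma stage, beside 2181, 1507 and 1938 of all genes. Prlr had log2 differences of -1.89 ± 0.87 (hyperplasia, adjusted p = 0.785, edgeR), -0.10 ± 0.86 (adenoma) and -2.23 ± 0.88 (carcinoma, adjusted p = 0.902). Leaving out 1 library moved the adenoma contrast of Prlr between -2.17 and 1.23 and the hyperplasia contrast to -0.43 without the second WT gland of week 6. The negative values go with WT tumors whose mean lay below that of their glands at weeks 6 and 10 and KO tumors whose mean lay above it at weeks 8 and 12. Elf5 had differences of 1.16 ± 0.60, 1.04 ± 0.60 and 0.19 ± 0.59, with intervals that each included 0.

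With age, no member was called in WT tumors of week 10 against week 6 by edgeR (0.011% of all genes called). At an unadjusted p under 0.05 there were 2, Kit and Ehf, beside 3122 of all genes, and DESeq2 called 1, Kit. Kit was at 13.7 to 33.2 CPM at week 6 and 47.8 to 140 at week 10 (log2 1.82 ± 0.46, adjusted p = 0.395, edgeR), so the groups did not overlap. It passed the test without the third tumor of week 10 (2.08, adjusted p = 0.0747). Ehf differed by 0.75 ± 0.24 (adjusted p = 0.47) and Elf5 by 0.64 ± 0.37 (adjusted p = 0.623). In KO tumors of week 12 against week 8, edgeR called no member and 0.0% of all genes, and DESeq2 called no member. Kit alone had an unadjusted p under 0.05 there (0.99 ± 0.45, adjusted p = 0.633), with 24.6 to 133 CPM against 38.0 to 55.8, beside 2878 of all genes.

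In WT glands of week 12 against week 6, 1 member, Elf5, was called, where 0.35% of all genes were called. It rose from 5.79 and 8.00 CPM to 30.6 and 25.6, a 4.07-fold difference (log2 2.03 ± 0.48, adjusted p = 0.0925, edgeR). The call was lost without either gland of week 6 (1.81 without replicate 1, 2.28 without replicate 2) and without either gland of week 12 (1.89 and 2.15), as each leaves 1 mouse in a group. It was also lost with a replicate block (2.04, adjusted p = 0.116, edgeR) and with the rRNA share as covariate (1.96, adjusted p = 0.153). BC016548 had a log2 difference of 1.30 ± 0.53 (adjusted p = 0.48) and Ehf of 0.66 ± 0.29 (adjusted p = 0.558). KO glands had no matching week 6 group, and their Elf5 levels were 19.6 and 23.5 CPM at week 8 and 15.3 and 11.8 at week 12.

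Levels of the members were compared pair by pair within each tissue. Of the 45 pairs of members, 23 (51.1%) had an adjusted p under 0.05 over the 19 tumors and 8 (17.8%) over the 14 glands, with values adjusted over all 90 pairs (permutation test, two-sided). Over all pairs of the 13324 genes with a mean of at least 1 CPM, 15.7% in tumors and 10.5% in glands had an r at least as far from 0 as the weakest of these member pairs. Without the single WT tumor of week 12, 20 member pairs passed over 18 tumors. Elf5 and Prlr had r = 0.93 and rho = 0.88 in tumors (adjusted p = 7.5e-05 and 0.00018, permutation test), and r was 0.84 without the 2 tumors farthest from the median. In deviations from the group means of the 18 tumors with replicates, r was 0.98, so the relation was present within groups of the same genotype and week. Elf5 also had r = 0.93 with Stat5a (rho 0.90, 0.87 without 2 tumors), 0.92 with BC016548 (rho 0.87, 0.87), 0.88 with Kit (rho 0.92, 0.81) and 0.83 with Ehf (rho 0.81, 0.72). Each of these 4 had an adjusted p of 7.5e-05 for r and of 0.00018 to 0.000643 for rho (permutation test). Tumors such as the third WT tumor of week 6 and the first KO tumor of week 12 were low in all 6 of these genes. Socs2 went the other way from Elf5 (r = -0.56, also without 2 tumors, rho = -0.66, adjusted p = 0.0416 and 0.0113, permutation test), a relation that did not pass without the WT tumor of week 12 (r = -0.55, adjusted p = 0.0519, permutation test). Cish had r = -0.05 with Elf5 (adjusted p = 0.86, permutation test).

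In the glands the pattern of pairs was not that of the tumors, although the difference between the tissues was not tested. Elf5 and Prlr had r = 0.06 and rho = 0.04 over 14 glands (adjusted p = 0.86 and 0.924, permutation test). In deviations from group means their r was 0.72. Each group held 2 glands, whose deviations mirror each other, so the 14 values were not independent, and this r was not tested. The 2 genes differed in opposite directions between the glands of WT week 10 and between those of KO week 8. Elf5 and Stat5a had r = -0.32 (rho -0.51, adjusted p = 0.397 and 0.142, permutation test). Prlr and Stat5a had r = 0.83 (rho 0.67, adjusted p = 0.00185 and 0.0301, permutation test, 0.75 without 2 glands), and Stat5a and Stat5b r = 0.84 (rho 0.90, adjusted p = 0.00072 and 0.00036, 0.74 without 2 glands). Stat5b and Cish had r = 0.79 (rho 0.88, adjusted p = 0.0036 and 0.000643, permutation test, 0.74 without 2 glands) and Elf5 and Cish r = -0.69 (rho -0.74, adjusted p = 0.0206 and 0.0122, -0.74 without 2 glands). Elf5 and Ehf had r = 0.77 in glands (rho 0.71, adjusted p = 0.00695 and 0.0179, permutation test, 0.59 without 2 glands), and Elf5 and BC016548 r = 0.76 (rho 0.74, adjusted p = 0.00621 and 0.0127, 0.71 without 2 glands). The plot of Elf5 against its partners shows both tissues on the same axes.

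Over all 33 libraries and 13323 genes with a mean of at least 1 CPM, the genes with a pattern most like Elf5 in log2 CPM were Rasal1 (r = 0.98), Pcx (0.97), Rassf4 (0.96), Folr1 (0.96), BC016548 (0.96), Ppm1h (0.96), Cited4 (0.96), Serinc3 (0.95), A530020G20Rik (0.95) and Scube1 (0.95). BC016548 had rank 5 and Ehf rank 32 (0.93). In deviations from group means over 32 libraries, the leading genes were Amt (0.91), Sntb1 (0.90), Rasal1 (0.89), Ehf (0.89), Gpd1l (0.88), Zfp667 (0.88), Cldn8 (0.88), Tbl1xr1 (0.88), Clmn (0.88) and Epb41l4b (0.87). Rasal1 was in both lists. By this measure Ehf had rank 4, Kit rank 32 (0.82), Prlr rank 155 (0.74), Stat5a rank 225 (0.71) and BC016548 rank 341 (0.67). These correlations describe libraries that share a tissue difference and a sequencing design, and are given with no test.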

How the data were processed

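Libraries were total RNA depleted of ribosomal RNA with a dUTP second-strand kit. Per the labels and the study's methods, the authors aligned reads to GRCm38 with HISAT, removed duplicates with Picard 1.128, counted reads per gene with HTSeq and normalized them with DESeq2 in R 3.6.2; whether counting used strand is not given in the sources used here. The deposited table of raw counts (55487 genes, 33 libraries, 28419983 to 130981596 reads) was used for all main results. 111 rows that name no gene, with 0.0778% of the reads, were left out. The deposited normalized table holds size-factor-scaled counts (a signal, not raw reads), from which whole reads were recovered for 100% of values within 0.1 reads. It served as an alternative only.

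Genes with at least 10 summed reads (36527) were fitted with edgeR 4.0.16 (R 4.3.3), TMM scaling and 1 coefficient per group over all 33 libraries, by quasi-likelihood test with Benjamini-Hochberg adjustment over all genes tested. The single WT tumor of week 12 entered no fitted comparison but is among the 19 tumors in ranges, counts of tumors above all glands and correlations, which were repeated without it as an alternative chosen after seeing the data. DESeq2 1.42.0 was an alternative. Calls need a fold change over 1.5 and an adjusted p under 0.1. Intervals are 95%. Correlations used log2 CPM with a prior count of 2 and 100000 permutations. Replicates are separate mice, and 2 or 3 per group limit the precision. Named genes beyond the members are up to 3 per list and direction, those with the largest averaged fold change among the called genes. The members and gene lists were chosen with earlier results of these data known.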

Additional observations from a re-analysis of the deposited data

Results flagged for a closer look

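The single PTHrP WT tumor of week 12 has no replicate and was in no comparison of edgeR or DESeq2, though it is among the 19 tumors of the ranges and correlations, and 4 members lay in it above all 8 PTHrP WT glands. Elf5 was at 98.6 CPM (highest WT gland 30.6), BC016548 at 5.95 (1.27), Ehf at 309 (128) and Kit at 198 (44.1). For Ehf and Kit these were also the highest values of all 33 libraries. The other 6 members lay within or below the range of the WT glands.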

How the results depend on the processing

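Elf5, BC016548, Ehf and Kit were called in the averaged comparison of tumors and glands under all 9 alternative settings and in all 30 fits that left out 1 library (4 to 5 members called, with Prlr as the fifth). Without a filter on low counts, 5 members were called at WT week 6 (Prlr and Stat5a added, lower in tumors), 5 at WT week 10 (Prlr and Kit added), 1 between WT and KO glands (Prlr) and 2 in WT tumors of week 10 against week 6 (Ehf and Kit), and DESeq2 called 1 in the last (Kit) and added Prlr at WT week 6. With only the groups compared in the fit, Prlr was added at WT week 10, 4 members were called at KO week 8 and 0 at KO week 12, where 0 of all genes were called. The call of Elf5 in WT glands with age was lost (0 members) with the rRNA share as covariate. The cause of these changes was not tested.

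Leaving out 1 library gave 2 to 3 members called at WT week 6, 3 to 4 at WT week 8, 2 to 3 at WT week 10, 0 to 2 at KO week 8, 1 to 3 at KO week 10 and 3 to 4 at KO week 12. It gave 0 to 1 between WT and KO glands, 0 to 1 in WT tumors with age, 0 to 0 in WT glands with age and 0 to 0 in WT against KO tumors, in KO tumors with age and in the 3 stage contrasts. Of 2650 values of a member in a comparison under an alternative, 92 had the opposite direction to the value reported, 82 of them with 1 library left out, and none of the called values was among them (0). These are the lowest and highest log2 differences over the fits that left out 1 library, where the sign turned. At WT week 6, the range was Kit -0.31 to 0.50. In the stage contrast of hyperplasia, the range was Ehf -0.056 to 0.34. In WT glands of week 12 against week 6, the range was Prlr -1.12 to 1.06. Between WT and KO glands, the ranges were Kit -0.19 to 0.15, Elf3 -0.18 to 0.17 and BC016548 -0.30 to 0.23. In the stage contrast of adenoma, the ranges were BC016548 -0.029 to 0.59, Elf3 -0.77 to 0.28, Prlr -2.17 to 1.23, Stat5a -0.57 to 0.71, Stat5b -0.22 to 0.22 and Socs2 -0.017 to 0.34. At WT week 8, the ranges were Elf3 -0.73 to 0.32, Prlr -1.59 to 0.43, Stat5a -0.87 to 0.41 and Stat5b -0.26 to 0.17. At WT week 10, the ranges were Stat5a -0.86 to 0.041 and Socs2 -0.26 to 0.040. In the stage contrast of carcinoma, the ranges were Elf5 -0.18 to 0.58 and BC016548 -1.04 to 0.55. Between WT and KO tumors, the ranges were Socs2 -0.034 to 0.14, Elf5 -0.0026 to 0.26, BC016548 -0.062 to 0.15, Kit -0.0039 to 0.48, Cish -0.23 to 0.12 and Prlr -0.19 to 0.022. At KO week 8, the ranges were Cish -0.45 to 0.20 and Elf3 -0.23 to 0.075. At KO week 10, the ranges were Elf3 -0.063 to 0.14, Prlr -1.62 to 1.26, Stat5a -0.66 to 0.17, Socs2 -0.17 to 0.19 and Cish -0.21 to 0.13. At KO week 12, the ranges were Elf3 -0.14 to 0.12, Socs2 -0.076 to 0.50 and Stat5b -0.012 to 0.13. In KO tumors of week 12 against week 8, the ranges were Elf5 -0.046 to 0.58, BC016548 -0.20 to 0.44, Prlr -0.34 to 0.25 and Socs2 -0.12 to 0.22. At WT week 8 without gland replicate 1, Elf3 was called (-0.73). With the rRNA share as covariate, Socs2 turned to -0.17 at KO week 10, -0.056 between WT and KO tumors, -0.15 between WT and KO glands and -0.064 in KO tumors with age, Elf3 to 0.015 at KO week 12 and Stat5b to 0.032 in the adenoma contrast. With a replicate block Cish turned to 0.052 at KO week 8 and 0.039 at KO week 10, and Prlr to 0.070 in the adenoma contrast. With at least 1 CPM in 2 libraries Socs2 turned to -0.0021 at KO week 10. Without the WT tumor of week 12, r of Elf5 and Cish over tumors turned to 0.044.

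The labels give replicate numbers but no shared litter or batch, and over 171 same-numbered pairs the median correlation of deviations was 0.0308 (-0.695 to 0.613). Same-numbered mice deviated together in some pairs of groups, among them all 6 pairs of WT gland weeks (r 0.123 to 0.528), KO tumors of weeks 8 and 10 (0.289 to 0.413) and KO glands of week 8 with KO tumors of week 8 (0.435 and 0.468) and week 10 (0.260 and 0.327). This is a hint from the data, and the pairing is unsettled. With a replicate block, 0 members were called in WT glands with age (Elf5 log2 2.04), and Ehf at WT week 6 (0.84) and Kit at WT week 8 (1.53) were no longer called. The rRNA share as covariate ended the same 2 calls (0.84 and 1.51).

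Counts of all genes called moved by over 1.5 times in some settings. Between WT and KO tumors edgeR called 187, against 664 by DESeq2, 573 without a filter, 397 with at least 1 CPM in 2 libraries and 116 with the rRNA share as covariate. Between WT and KO glands it called 331, against 741, 722 and 52 (DESeq2, no filter, rRNA share) and 67 with only the groups compared. In WT glands with age it called 128, against 683, 558, 310 (at least 1 CPM in 2 libraries), 51 (rRNA share) and 79 (replicate block). In the 3 stage contrasts it called 0, against 27, 12 and 78 by DESeq2 and 20, 15 and 98 without a filter. In WT tumors with age it called 4, against 253 and 440, and in KO tumors with age 0, against 125 and 176 (DESeq2, no filter). With at least 1 CPM in 2 libraries it called 0 in WT tumors with age, and with only the groups compared it called 0 there and 1 in KO tumors with age. In the averaged comparison of tumors and glands it called 5451, and 3262 with at least 1 CPM in 2 libraries. At KO week 8 it called 909, against 1695 by DESeq2, 1613 without a filter and 1416 with only the groups compared, and in the same setting 995 in place of 2240 at WT week 10 and 0 in place of 2233 at KO week 12. BC016548, with as few as 6 reads in a gland, is the member most limited by depth.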
